A study of Homo sapiens with 12 samples.

Results

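The genes described here encode the constitutive 26S proteasome, measured by RNA sequencing in A549, a line grown from a human lung adenocarcinoma. They were chosen by name, as the 20S core without its immune subunits together with the 19S regulatory particle. This gave 32 genes of the 60617 in the deposited count table, and all 32 had enough counts to be tested. By place in the complex they were 7 alpha ring subunits, 4 structural and 3 catalytic beta ring subunits, 6 ATPases and 4 other proteins of the 19S base, and 8 subunits of the 19S lid. The 12 libraries fell into 4 groups of 3. In the YTHDF1 KO group the genotype label gives a knockout of YTHDF1, a cytoplasmic reader of N6-methyladenosine in RNA, although the titles call it a knockdown. In the siARID1A group, small interfering RNA was aimed at ARID1A, a subunit of the BAF chromatin remodeller. The combined group carried both changes, and the WT group carried neither. The labels name no control small interfering RNA, do not say whether the knockout cells were 1 clone or a pool, give no time of silencing and call the libraries of a group biological replicates without naming cultures. The spread behind each p-value is the spread of these libraries, which may be technical. The series title concerns the part of YTHDF1 in R-loop control and in immune signalling of cancer cells.

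The 26S proteasome degrades proteins that carry ubiquitin chains. Its 20S core is a barrel in which alpha rings gate the entry and beta rings carry the proteolytic sites. The 19S particle binds ubiquitin, removes it, and unfolds the substrate with a ring of ATPases. Cells with impaired proteasomes are known to raise all subunit genes together through NFE2L1 (NRF1), a transcription factor that binds antioxidant response elements. Interferon can replace the catalytic beta subunits with immune counterparts, which changes the peptides cut for presentation to T cells.

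Library totals ran from 30220717 to 45042635 counts. YTHDF1 had 26.7, 25.3 and 22.6 CPM (the count over the library size, scaled by TMM, a trimmed mean of ratios, times 1000000) in YTHDF1 KO libraries and 32.2, 30.4 and 30.2 CPM in combined libraries. It had 98.4, 102.3 and 93.0 CPM in siARID1A libraries and 88.3, 90.7 and 85.6 CPM in WT libraries, so the groups labelled as lacking it were lower but above 0. ARID1A had 44.9, 41.0 and 41.6 CPM in siARID1A libraries and 46.7, 58.3 and 57.6 CPM in combined libraries. ARID1A had 174.5, 154.0 and 153.5 CPM in YTHDF1 KO libraries, and 168.1, 175.6 and 148.2 CPM in WT libraries. The keratins KRT7, KRT8 and KRT18 and the A549 enzymes ALDH1A1 and AKR1B10 were abundant, KRT19 was at most 1.25 CPM, and the blood, endothelial and alveolar type II markers PTPRC, CD3E, LYZ, VWF and SFTPC stayed at or near 0. COL1A1, a fibroblast collagen, had 19.6 to 56.9 CPM over all libraries, and ACTA2, a smooth muscle actin, had 5.81 to 7.07 CPM in YTHDF1 KO, 20.1 to 23.2 CPM in siARID1A, 11.9 to 14.0 CPM in combined and 3.20 to 3.63 CPM in WT libraries. The 10 epithelial and A549 markers summed to 10550.0 to 11182.4 CPM in YTHDF1 KO, 18685.8 to 22615.1 CPM in siARID1A, 11851.5 to 12492.6 CPM in combined and 18078.0 to 20795.8 CPM in WT libraries. The 12 markers of other cell types summed to 40.0 to 44.1, 44.8 to 62.0, 35.4 to 50.6 and 35.9 to 62.8 CPM in the same order of groups. Of the 10 epithelial and A549 markers, 0 were higher and 8 lower in YTHDF1 KO over WT at an edgeR adjusted p under 0.05. In siARID1A over WT 5 were higher and 1 lower, and in combined over WT 0 and 7. Of all genes tested, 19.6%, 22.1% and 25.6% were higher and 20.8%, 23% and 25.9% lower in those comparisons. In combined over siARID1A cells all 10 were lower, as were 17.2% of all genes. The part of these markers in the results below was not tested.

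WT replicate 2 stood apart from the other libraries, and it bears on every comparison with WT. Mitochondrial transcripts took 4.85% of its counts, against 6.81% to 8.23% in the other libraries. Of the 32 proteasome genes, 29 were lower in WT replicate 2 than in both other WT libraries, and 24 were at their lowest there of all 12 libraries. The median log2 ratio of WT replicate 2 to the other WT libraries was -0.31 over the 32 genes and 0.000 over all genes tested, of which 35.0% were below both other WT libraries. Counts over the 32 genes against WT are therefore given with and without this library. Single genes are given without it where that changes a call or moves a printed log2 fold change by over 1.5 times. The edgeR adjusted p of calls that held moved by more than that, in both directions, and is mostly not given. For example, it went from 0.00558 to 0.0358 for PSMC1 in combined over WT. For PSMD1 in YTHDF1 KO over WT it went from 2.99e-05 to 4.18e-07.

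The sum over the 32 genes was close to level across the groups. It came to 4919.8, 5218.9 and 4980.2 CPM in YTHDF1 KO libraries, 4805.9, 5146.6 and 4714.3 CPM in siARID1A libraries, 5053.1, 4936.1 and 4712.7 CPM in combined libraries, and 5299.9, 4166.9 and 4804.4 CPM in WT libraries. The WT libraries held both the highest and the lowest sum, so the groups overlapped. These RNAs made up 0.418% to 0.533% of all counts. In bulk RNA, fewer cells of a kind and less RNA per cell cannot be told apart.

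Levels between genes were compared per length, as CPM per kilobase of the principal transcript in GENCODE 29. In WT cells PSMA7, an alpha ring subunit, had the highest mean at 235.1 CPM per kb, followed by the lid subunit PSMD8 at 186.5, the beta ring subunits PSMB4 at 180.8 and PSMB3 at 173.7, and the ATPase PSMC4 at 170.5 CPM per kb. The median was 143.0 CPM per kb for the catalytic and 135.5 for the structural beta subunits, 85.8 for the other base proteins, 69.7 for the lid, 63.1 for the ATPases and 24.7 CPM per kb for the alpha ring. Of the 31 pairs of neighbours in the full order, 25 differed by less than their combined SD and 6 by more. The genes at the low end were PSMD12 (22.4), PSMA1 (15.2), PSMC1 (14.7), PSMA6 (3.92) and PSMA2 (3.17 CPM per kb). PSMA1, PSMA2 and PSMA6 share 53.2%, 52.5% and 81.0% of their principal transcript with a second gene annotated on the same strand. PSMC1 shares 82.1% with NRDE2 on the other strand. How the counting treated such bases is not given in the sources used here, so the levels of these 4 genes are uncertain. PSMA1, PSMA2 and PSMA6 are 3 of the 7 alpha ring genes, so the low median of that ring is uncertain as well. The other alpha ring genes, PSMA7, PSMA3, PSMA4 and PSMA5, had 235.1, 104.0, 52.2 and 24.7 CPM per kb. Without the 3 genes that share same-strand bases, the highest and lowest levels differed 16.0-fold, and all 29 had at least 1871 counts in every library. The lowest of these 29 was PSMC1 at 14.7, itself uncertain, and the next was PSMD12 at 22.4 CPM per kb. PSMA2 had 123 to 202 and PSMA6 113 to 253 counts per library, and 4 pseudogenes of PSMA6 had 10.9% as many counts as the gene.

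**Figure D1:**
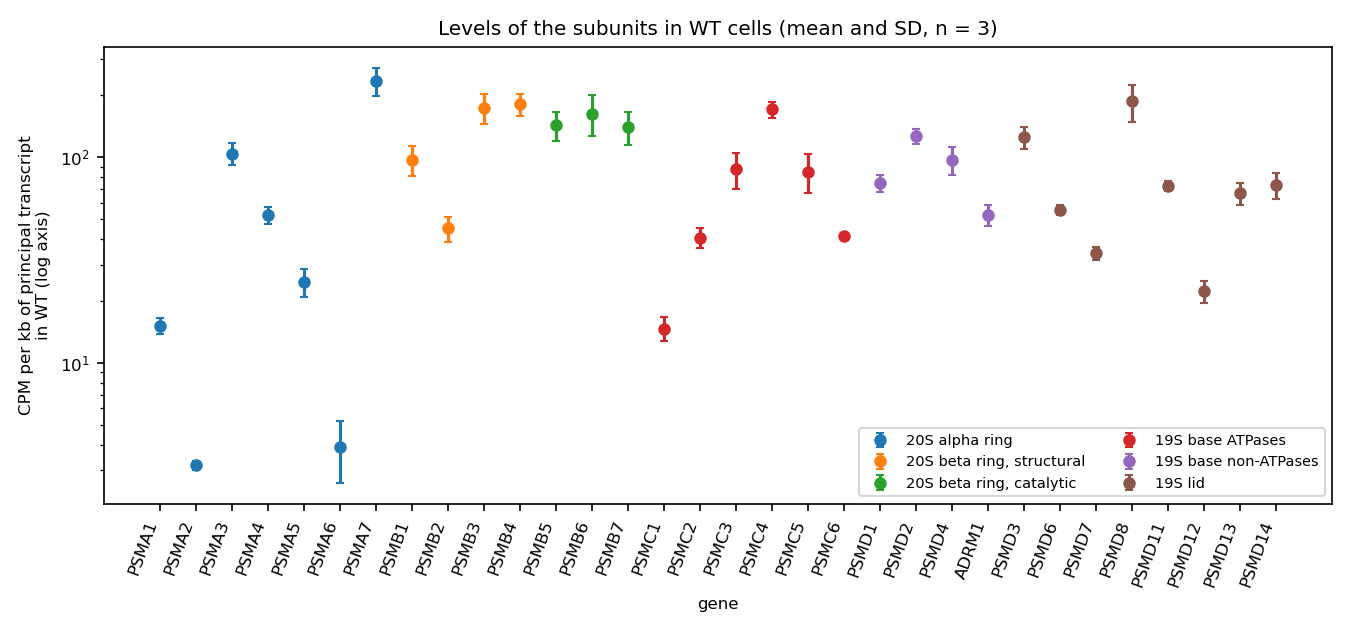
Mean level of each of the 32 subunit genes in WT cells (CPM per kb of principal transcript, log axis), with the SD of 3 libraries and coloured by subcomplex. The alpha ring spans the whole range, with PSMA7 highest at 235.1 and PSMA2 lowest at 3.17 CPM per kb. The levels of PSMA1, PSMA2, PSMA6 and PSMC1 are uncertain, since their transcripts share bases with other genes.

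Changes were small and ran both ways within the complex. At an adjusted p under 0.05 (edgeR quasi-likelihood F test, two-sided, Benjamini-Hochberg over 18524 genes), YTHDF1 KO cells had 7 of the 32 genes higher and 3 lower than WT, while 19.6% of all genes tested were higher and 20.8% lower. In siARID1A cells 8 were higher and 3 lower than WT, against 22.1% and 23% of all genes. In combined cells 9 were higher and 3 lower than WT, against 25.6% and 25.9% of all genes. In either direction 40.4% of all genes were called in YTHDF1 KO, 45.2% in siARID1A and 51.5% in combined cells over WT. With all libraries and TMM, the shares of the 32 genes stood near the background for rises and below it for falls. The median log2 fold change of the 32 genes was 0.12 in YTHDF1 KO, 0.084 in siARID1A and 0.15 in combined cells over WT, beside -0.012, -0.011 and -0.005 for all genes tested. The median size of change without its sign was 0.14, 0.15 and 0.17 on the log2 scale for the 32 genes, beside 0.33, 0.37 and 0.42 for all genes, which were not matched for level. Without WT replicate 2 the medians of the 32 genes were 0.021, 0.020 and 0.041. The counts were then 7 higher and 4 lower in YTHDF1 KO, 3 and 4 in siARID1A, and 6 and 5 in combined cells. Of 19120 genes tested, 3586 were higher and 3604 lower in YTHDF1 KO, 4080 and 3839 in siARID1A, and 4645 and 4620 in combined cells. In either direction 34.4%, 21.9% and 34.4% of the 32 genes were then called, beside 37.6%, 41.4% and 48.5% of all genes. Without WT replicate 1 the counts of the 32 genes were 14, 13 and 15 higher, and those of all genes in that fit are not given here. With library totals in place of TMM they were 18, 15 and 19 higher, beside 4765, 4683 and 6074 of all 18524 genes. The median of all genes itself then moved up to 0.080, 0.050 and 0.13. In either direction 62.5%, 56.2% and 68.8% of the 32 genes were called with library totals, beside 42%, 44.2% and 51.7% of all genes. The 3 comparisons share the WT libraries and are not independent.

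**Figure D2:**
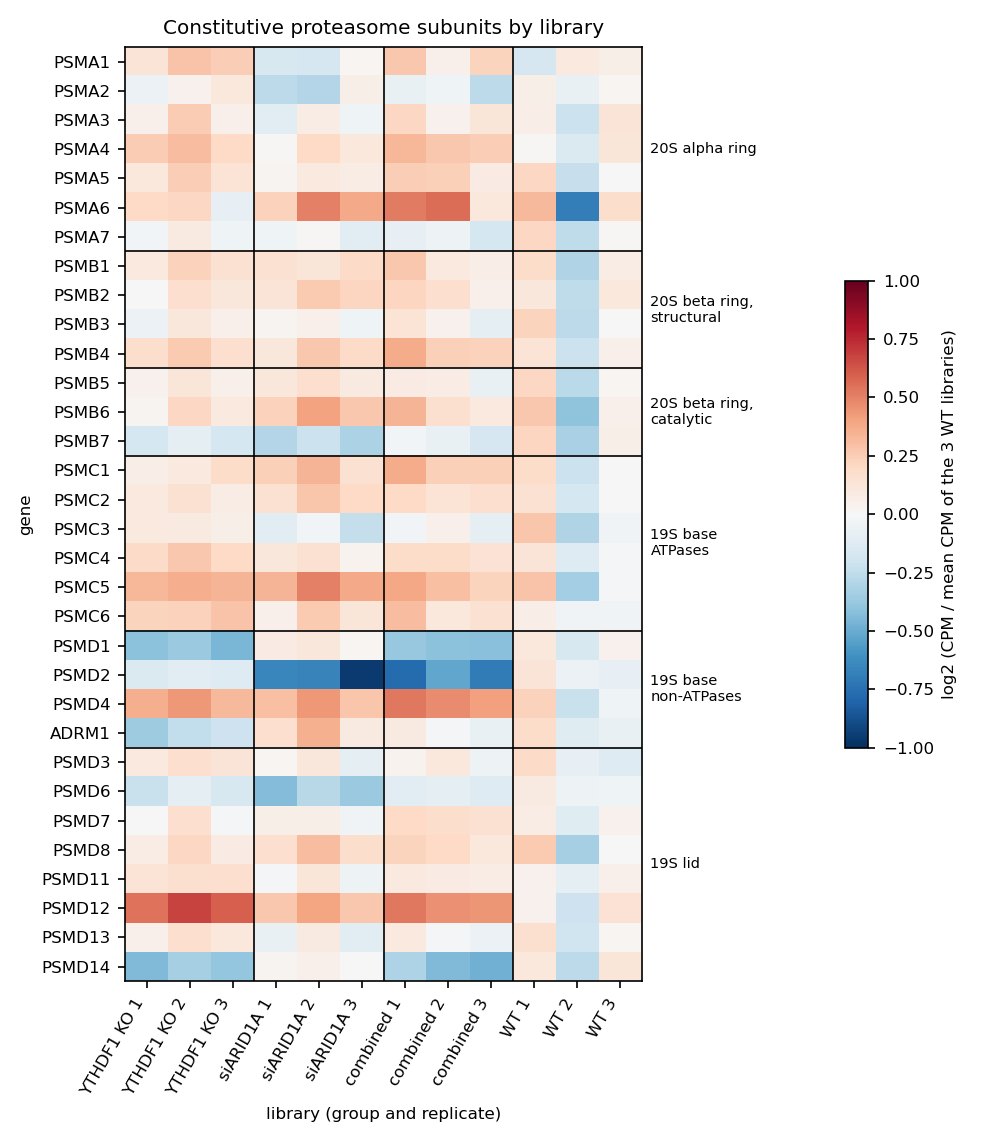
Each row is a subunit gene and each column a library. Colour gives log2 of its CPM over the mean CPM of the 3 WT libraries, red higher and blue lower, and lines separate groups and subcomplexes. WT replicate 2 is blue in most rows, while PSMD2, PSMD1, PSMD14 and PSMD12 show blocks of colour that follow the groups.

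**Figure D3:**
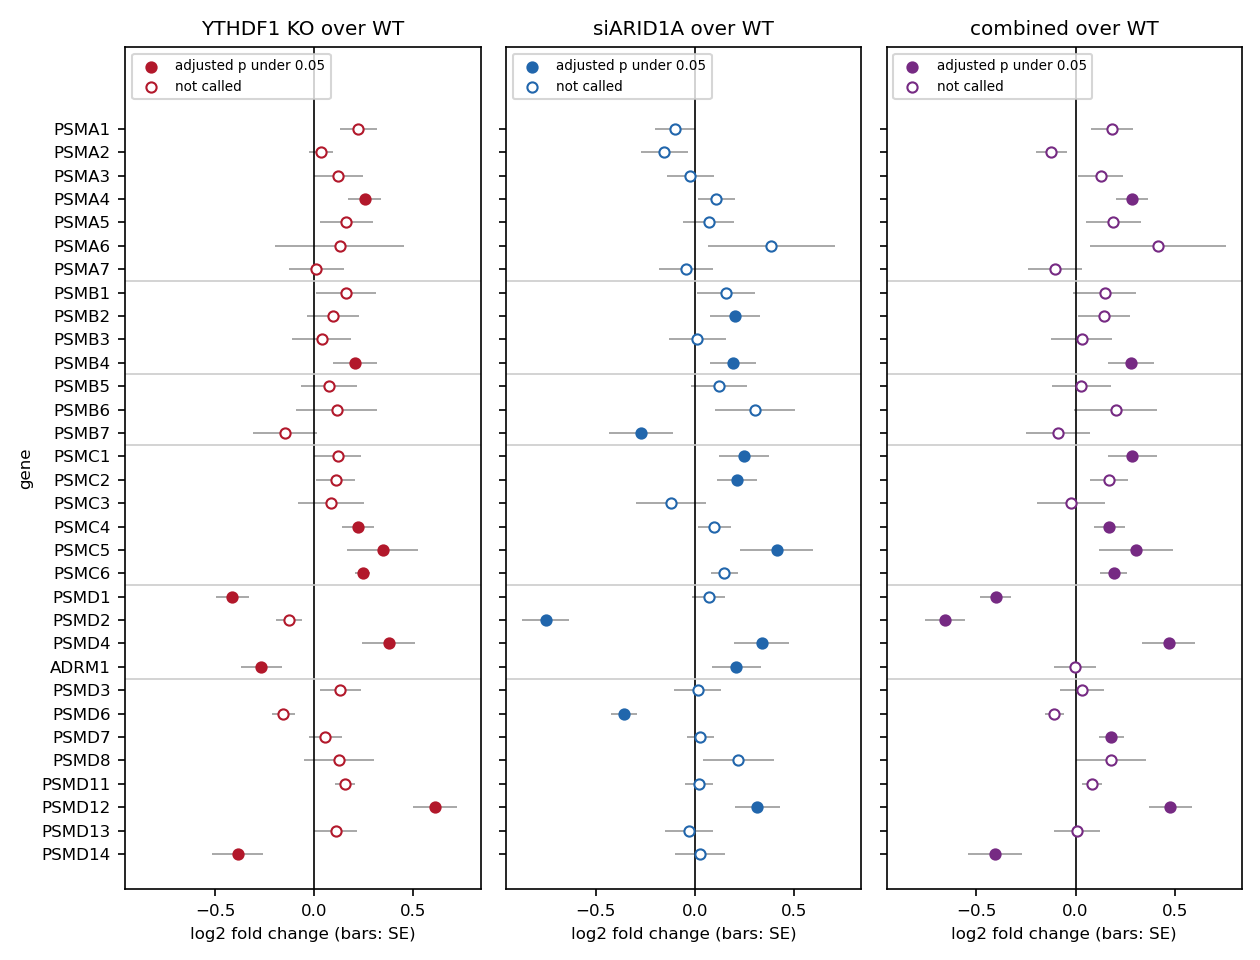
Log2 fold change over WT (x axis) of the 32 genes (y axis, by subcomplex) in YTHDF1 KO, siARID1A and combined cells. Bars are standard errors from the replicate SDs, filled points have an adjusted p under 0.05 and open points do not. Most points lie within 0.3 of 0, and the widest are PSMD2 and PSMD12.

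In the 19S base, PSMD2 (RPN1), a scaffold that docks ubiquitin shuttles, had the largest change of any of the 32 genes. PSMD2 (ENSG00000175166, chr3:184298709-184309054, GRCh38) had 394.8, 404.7 and 398.1 CPM in YTHDF1 KO libraries, 277.5, 273.7 and 224.9 CPM in siARID1A libraries, 255.2, 304.6 and 268.3 CPM in combined libraries, and 477.1, 418.2 and 412.0 CPM in WT libraries. All 6 libraries with ARID1A silenced lay below all 6 without. It fell by 0.75 ± 0.12 on the log2 scale in siARID1A cells against WT (SE, n = 3 each, edgeR adjusted p = 8.47e-08) and by 0.53 ± 0.077 in combined against YTHDF1 KO cells (adjusted p = 3.98e-05). In YTHDF1 KO cells its log2 fold change over WT was -0.13 ± 0.068, with an adjusted p of 0.246, although the libraries did not overlap. The change with siARID1A did not differ detectably between the YTHDF1 backgrounds (difference 0.22 ± 0.14, edgeR adjusted p = 0.226). The 97 other tested genes within 10 Mb of PSMD2 had a median log2 fold change of 0.0 in siARID1A over WT.

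PSMD1 (RPN2), a scaffold of the base beside PSMD2, and PSMD14 (RPN11), the lid enzyme that cuts ubiquitin off the substrate, followed the YTHDF1 genotype instead. PSMD1 (chr2:231056864-231172827) had 186.5, 191.6 and 181.0 CPM in YTHDF1 KO libraries, 262.3, 267.8 and 251.0 CPM in siARID1A libraries, 190.3, 186.8 and 186.1 CPM in combined libraries, and 266.6, 222.5 and 255.3 CPM in WT libraries. PSMD14 (chr2:161308038-161411717) had 105.6, 114.0 and 109.4 CPM in YTHDF1 KO libraries, 145.8, 148.8 and 143.6 CPM in siARID1A libraries, 115.8, 105.8 and 102.8 CPM in combined libraries, and 154.2, 119.7 and 156.3 CPM in WT libraries. For both genes all 6 YTHDF1 KO and combined libraries lay below all 6 siARID1A and WT libraries. In YTHDF1 KO over WT, PSMD1 fell by 0.41 ± 0.082 (edgeR adjusted p = 2.99e-05) and PSMD14 by 0.39 ± 0.13 (edgeR adjusted p = 0.000457) on the log2 scale. In combined over siARID1A cells PSMD1 fell by 0.47 ± 0.029 and PSMD14 by 0.43 ± 0.054. Both lie on chromosome 2, whose other 1229 tested genes had a median log2 fold change of -0.41 in YTHDF1 KO over WT and -0.42 in combined over siARID1A, against 0.022 in YTHDF1 KO over WT for the genes off chromosomes 2 and 9. The 119 genes within 10 Mb of PSMD1 had a median of -0.46, and the 73 within 10 Mb of PSMD14 a median of -0.43, in YTHDF1 KO over WT. The falls of PSMD1 and PSMD14 were thus of the size of the whole chromosome's shift, and the part of that shift in them was not tested.

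The ubiquitin receptors of the base, PSMD4 (RPN10) and ADRM1 (RPN13), moved differently from each other. PSMD4 had 168.6, 177.2 and 163.7 CPM in YTHDF1 KO libraries, 161.4, 176.7 and 158.5 CPM in siARID1A libraries, 188.7, 181.3 and 174.0 CPM in combined libraries, and 153.4, 112.4 and 127.3 CPM in WT libraries. Every library of the other groups was above every WT library. It rose by 0.38 ± 0.13, 0.34 ± 0.14 and 0.47 ± 0.14 on the log2 scale over WT in YTHDF1 KO, siARID1A and combined cells, with edgeR adjusted p of 0.000850, 0.00204 and 4.93e-05. ADRM1 had 62.6, 67.4 and 69.1 CPM in YTHDF1 KO libraries, 89.7, 102.4 and 85.2 CPM in siARID1A libraries, 84.8, 78.8 and 75.9 CPM in combined libraries, and 90.5, 73.3 and 75.8 CPM in WT libraries. The YTHDF1 KO libraries were the 3 lowest of the 12. ADRM1 fell by 0.27 ± 0.10 in YTHDF1 KO cells against WT (edgeR adjusted p = 0.0123) and rose by 0.27 ± 0.064 in combined over YTHDF1 KO cells (adjusted p = 0.0217). The fall was lost with library totals and without YTHDF1 KO replicate 1 or WT replicate 1 (adjusted p up to 0.119, log2 fold change -0.17 without WT replicate 1). The rise over YTHDF1 KO was lost without YTHDF1 KO replicate 1 or 2 or combined replicate 1 (adjusted p up to 0.119). Its rise of 0.21 ± 0.12 in siARID1A over WT (edgeR adjusted p = 0.0422) was lost under 11 of 20 alternatives, with an adjusted p of 0.102 without WT replicate 2 and of 0.267 without siARID1A replicate 2, and its libraries overlapped. ADRM1 lies 0.887 Mb from YTHDF1 on chromosome 20, and 103 genes within 10 Mb of it had a median log2 fold change of -0.076 in YTHDF1 KO over WT.

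In the lid, PSMD12 (RPN5), one of the subunits that form the frame of the lid, had the largest rise. PSMD12 (ENSG00000197170, chr17:67337916-67366627, GRCh38) had 143.8, 157.9 and 149.2 CPM in YTHDF1 KO libraries, 119.1, 129.5 and 118.6 CPM in siARID1A libraries, 141.9, 135.6 and 133.8 CPM in combined libraries, and 101.8, 85.2 and 108.7 CPM in WT libraries. All 9 libraries of the other groups exceeded the WT libraries, and the YTHDF1 KO and combined libraries also exceeded those of siARID1A. It rose by 0.61 ± 0.11 in YTHDF1 KO (edgeR adjusted p = 5.37e-07), by 0.31 ± 0.11 in siARID1A (adjusted p = 0.00181) and by 0.48 ± 0.11 in combined cells over WT (adjusted p = 1.27e-05), on the log2 scale. Without WT replicate 2 these values were 0.53, 0.24 and 0.39, and all 3 stayed called. The change with siARID1A was smaller on the knockout background by 0.45 ± 0.12 (interaction -0.45, edgeR adjusted p = 0.00518). The 228 other tested genes within 10 Mb had medians of 0.22, 0.24 and 0.27 in YTHDF1 KO, siARID1A and combined cells over WT, in the direction of PSMD12, and their part in its rise was not tested.

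PSMD6 (RPN7), another lid subunit, was lowest in siARID1A. It had 68.0, 74.5 and 71.1 CPM in YTHDF1 KO libraries, 58.7, 65.5 and 61.4 CPM in siARID1A libraries, 73.8, 74.6 and 72.5 CPM in combined libraries, and 84.3, 76.3 and 77.1 CPM in WT libraries. The siARID1A libraries were below all other 9. PSMD6 fell by 0.36 ± 0.065 in siARID1A against WT (edgeR adjusted p = 0.000154), and was higher by 0.25 ± 0.048 in combined than in siARID1A cells (adjusted p = 0.00563). The difference between the changes with siARID1A on the YTHDF1 backgrounds was 0.41 ± 0.076 (edgeR adjusted p = 0.00442). Of the other lid genes, PSMD7 rose by 0.18 ± 0.063 in combined cells over WT (edgeR adjusted p = 0.0433; 0.168 without WT replicate 2, and lost under 11 of 20 alternatives). PSMD3, PSMD8, PSMD11 and PSMD13 were called in no comparison.

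**Figure D4:**
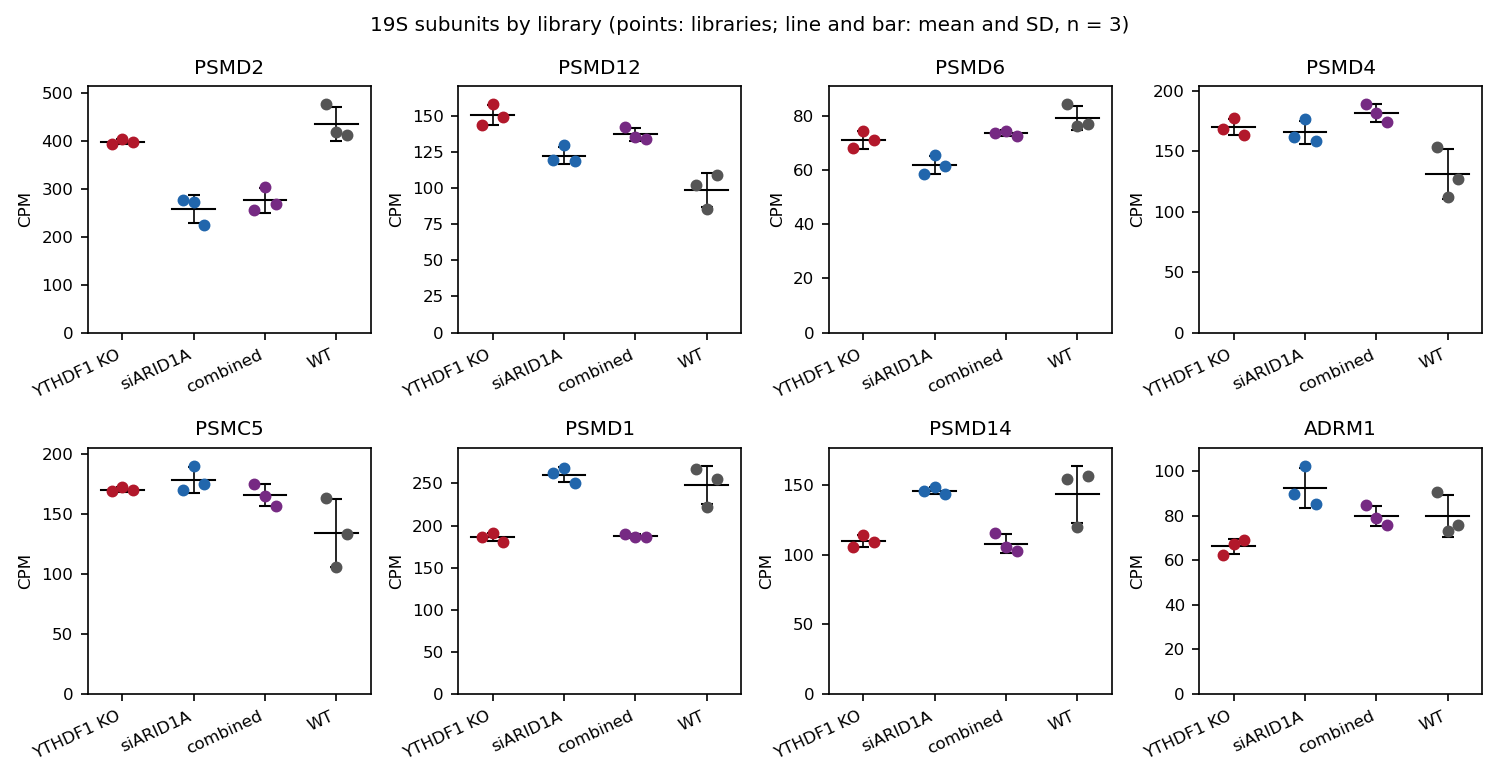
CPM (y axis, from 0) of 8 genes of the 19S particle in each library, by group. Points are libraries, and lines and bars the mean and SD (n = 3). PSMD2 is low in both groups with ARID1A silenced, PSMD1 and PSMD14 in both groups with YTHDF1 knocked out, and PSMD12 lowest in WT.

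Among the ATPases, which unfold the substrate, every call over WT with all libraries was a rise. Of the 6, 3 rose in YTHDF1 KO, 3 in siARID1A and 4 in combined cells over WT, where 19.6%, 22.1% and 25.6% of all genes were higher. The rises were 3, 1 and 2 without WT replicate 2, and PSMC3 (RPT5) was then lower in siARID1A than in WT, at a log2 fold change of -0.23 (edgeR adjusted p = 0.0189). PSMC5 (RPT6) had 169.0, 172.6 and 169.6 CPM in YTHDF1 KO libraries, 170.2, 190.2 and 174.8 CPM in siARID1A libraries, 175.2, 165.2 and 156.7 CPM in combined libraries, and 163.1, 106.2 and 133.1 CPM in WT libraries. WT was low and widely spread, and overlapped the combined libraries. PSMC5 rose by 0.35 ± 0.18, 0.41 ± 0.19 and 0.31 ± 0.19 on the log2 scale over WT in YTHDF1 KO, siARID1A and combined cells, with edgeR adjusted p of 0.0112, 0.00288 and 0.0187. Without WT replicate 2 the values were 0.22, 0.29 and 0.17, with adjusted p of 0.0257, 0.00297 and 0.0712. The 157 other tested genes within 10 Mb, on chromosome 17, had medians of 0.29, 0.25 and 0.33 in YTHDF1 KO, siARID1A and combined cells over WT, and their part in the rise of PSMC5 was not tested. PSMC5 also shares 27.2% of its transcript with FTSJ3 on the other strand.

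PSMC6 (RPT4) rose by 0.25 ± 0.037 in YTHDF1 KO and by 0.19 ± 0.069 in combined cells over WT (edgeR adjusted p = 0.00711 and 0.0267). PSMC4 (RPT3) rose by 0.22 ± 0.080 in YTHDF1 KO and by 0.17 ± 0.077 in combined cells over WT (edgeR adjusted p = 0.0138 and 0.0467), and the second call was lost under 12 of 20 alternatives, with an adjusted p of 0.155 without WT replicate 2. PSMC1 (RPT2), which shares most of its transcript with NRDE2 and whose 13 annotated pseudogenes together had 3.34% as many counts, rose by 0.25 ± 0.13 in siARID1A and by 0.29 ± 0.12 in combined cells over WT (edgeR adjusted p = 0.0180 and 0.00558). PSMC2 (RPT1) rose by 0.21 ± 0.10 in siARID1A over WT (edgeR adjusted p = 0.0199). The siARID1A values of PSMC1 and PSMC2 had adjusted p of 0.0780 and 0.0731 without WT replicate 2. PSMC3 was called in no comparison with all libraries. The rise of PSMC4 in YTHDF1 KO was lost without YTHDF1 KO replicate 2 (adjusted p = 0.0682). The rise of PSMC6 in combined cells was lost under 4 of 20 alternatives, among them leaving out combined replicate 1 or WT replicate 3, with a log2 fold change down to 0.13.

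In the 20S core, PSMA4 was the 1 alpha ring gene called over WT with all libraries. PSMA4 had 275.0, 285.3 and 263.9 CPM in YTHDF1 KO libraries, 232.1, 263.9 and 248.1 CPM in siARID1A libraries, 289.7, 277.6 and 272.9 CPM in combined libraries, and 231.6, 208.4 and 250.3 CPM in WT libraries. The YTHDF1 KO and combined libraries lay above the WT libraries, and those of siARID1A overlapped them. PSMA4 rose by 0.26 ± 0.083 in YTHDF1 KO and by 0.28 ± 0.081 in combined cells over WT (edgeR adjusted p = 0.00648 and 0.00213). PSMA1, whose counts are uncertain as said above, had 24.9, 27.9 and 27.0 CPM in YTHDF1 KO libraries, 20.5, 20.4 and 23.2 CPM in siARID1A libraries, 27.6, 23.7 and 26.6 CPM in combined libraries, and 20.4, 24.4 and 23.8 CPM in WT libraries. The combined libraries lay above those of siARID1A, and overlapped WT. PSMA1 was higher by 0.28 ± 0.089 in combined than in siARID1A cells (edgeR adjusted p = 0.0243), a call lost without siARID1A replicate 1 or 2 or combined replicate 1 or 3 (adjusted p up to 0.0982). Without WT replicate 2, PSMA1 was also higher in YTHDF1 KO than in WT (0.29, edgeR adjusted p = 0.0285), and PSMA7 lower in combined than in WT cells (-0.21, adjusted p = 0.0147). PSMA6 had log2 fold changes of 0.39 ± 0.32 in siARID1A and 0.42 ± 0.34 in combined cells over WT, with edgeR adjusted p of 0.133 and 0.0942. Without WT replicate 2 these PSMA6 values were 0.14 and 0.16. PSMA2, PSMA3, PSMA5 and PSMA7 were called in no comparison with all libraries.

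In the structural beta ring PSMB4 rose over WT by 0.20 ± 0.11 in YTHDF1 KO, by 0.19 ± 0.12 in siARID1A and by 0.28 ± 0.12 in combined cells (edgeR adjusted p = 0.0413, 0.0496 and 0.00425). Without WT replicate 2 the rises were 0.12, 0.12 and 0.19, with edgeR adjusted p of 0.182, 0.192 and 0.0239. The first 2 calls were lost under 8 and 13 of 20 alternatives. PSMB2 rose by 0.20 ± 0.13 in siARID1A over WT (edgeR adjusted p = 0.0499). Without WT replicate 2 the rise of PSMB2 was 0.11 (edgeR adjusted p = 0.228), and the call was lost under 12 of 20 alternatives. PSMB1 and PSMB3 were called in no comparison. PSMB4 and PSMD4 lie 0.132 Mb apart on chromosome 1, and the genes within 10 Mb of PSMB4 had medians of 0.085, 0.016 and 0.13 in YTHDF1 KO, siARID1A and combined cells over WT.

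The catalytic beta subunits PSMB6 (caspase-like), PSMB7 (trypsin-like) and PSMB5 (chymotrypsin-like) gave 1 call with all libraries. PSMB7 had 121.6, 128.9 and 121.6 CPM in YTHDF1 KO libraries, 112.6, 118.8 and 110.7 CPM in siARID1A libraries, 134.7, 130.9 and 122.5 CPM in combined libraries, and 159.3, 110.1 and 143.3 CPM in WT libraries. Each group overlapped WT through WT replicate 2. PSMB7 fell by 0.27 ± 0.16 in siARID1A against WT (edgeR adjusted p = 0.0197; without WT replicate 2 it fell by 0.39, adjusted p = 3.59e-05). The call was lost under 5 of 20 alternatives, namely the 2 groups alone and leaving out siARID1A replicate 1 or 3 or WT replicate 1 or 3, with an adjusted p up to 0.169 and a log2 fold change of -0.15 without WT replicate 1. In YTHDF1 KO and combined cells its log2 fold changes over WT were -0.15 ± 0.16 and -0.088 ± 0.16. They were -0.27 and -0.22 without WT replicate 2, and both were called (edgeR adjusted p = 0.00215 and 0.00956). PSMB7 lies on chromosome 9, and the 196 other tested genes within 10 Mb had medians of -0.48, -0.56 and -0.60 in YTHDF1 KO, siARID1A and combined cells over WT, lower than PSMB7 itself in each. PSMB5 had 191.0, 201.3 and 191.8 CPM in YTHDF1 KO, 199.8, 207.4 and 197.0 CPM in siARID1A, 195.7, 194.5 and 176.1 CPM in combined, and 213.8, 153.3 and 188.1 CPM in WT libraries. PSMB6 had 141.4, 159.8 and 148.6 CPM in YTHDF1 KO, 163.0, 183.5 and 166.9 CPM in siARID1A, 175.6, 154.6 and 148.7 CPM in combined, and 167.0, 105.2 and 143.9 CPM in WT libraries. Both overlapped WT in every group.

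Their immune counterparts, which interferon induces, changed far more from a low base. PSMB9, the counterpart of PSMB6, had 12.1, 11.95 and 10.3 CPM in YTHDF1 KO libraries, 14.7, 19.9 and 16.0 CPM in siARID1A libraries, 21.3, 19.6 and 19.8 CPM in combined libraries, and 5.52, 3.76 and 4.46 CPM in WT libraries. PSMB8, the counterpart of PSMB5, had 11.3, 15.6 and 11.96 CPM in YTHDF1 KO libraries, 18.0, 18.1 and 19.2 CPM in siARID1A libraries, 28.6, 26.1 and 24.1 CPM in combined libraries, and 6.90, 6.26 and 5.75 CPM in WT libraries. WT was below the other groups without overlap for both genes, and combined cells were the highest for PSMB8. PSMB9 rose by 1.33 ± 0.17, 1.88 ± 0.21 and 2.14 ± 0.16, and PSMB8 by 1.04 ± 0.16, 1.55 ± 0.081 and 2.06 ± 0.10, on the log2 scale over WT in YTHDF1 KO, siARID1A and combined cells, with the highest edgeR adjusted p of the 6 at 1.86e-07. PSMB10, the counterpart of PSMB7, had under 3 CPM in every library. It rose by 0.62 ± 0.23 in siARID1A and by 0.67 ± 0.17 in combined cells over WT (edgeR adjusted p = 0.0411 and 0.0242). Its log2 fold change was -0.27 ± 0.22 in YTHDF1 KO over WT (edgeR adjusted p = 0.440), and -0.095 without WT replicate 2. The PSMB10 call in siARID1A was lost under 10 of 20 alternatives, DESeq2, no low-count filter and the 2 groups alone among them, and without siARID1A replicate 2 or 3, any 1 combined library, or WT replicate 1 or 3 (adjusted p up to 0.155). Its call in combined cells was lost without combined replicate 2, WT replicate 1 or WT replicate 3 (adjusted p up to 0.0929). Per kb, PSMB9 reached 8.35% ± 0.89 of PSMB6 in YTHDF1 KO, 10.7% ± 1.01 in siARID1A, 13.8% ± 0.67 in combined and 3.62% ± 0.26 in WT cells (SD, n = 3). PSMB8 reached 7.63% ± 1.11 of PSMB5 in YTHDF1 KO, 10.6% ± 0.60 in siARID1A, 16.0% ± 0.71 in combined and 3.98% ± 0.63 in WT cells. The constitutive RNAs thus remained several times more abundant than the immune ones in every group. The activator genes PSME1 and PSME2, of the 11S cap that interferon also induces, rose over WT in all 3 groups, most in combined cells, where PSME1 rose by 0.58 ± 0.061 and PSME2 by 0.83 ± 0.17 (edgeR adjusted p = 1.78e-07 and 1.38e-07). The rise of PSME2 in YTHDF1 KO cells had an adjusted p of 0.119 without WT replicate 2.

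**Figure D5:**
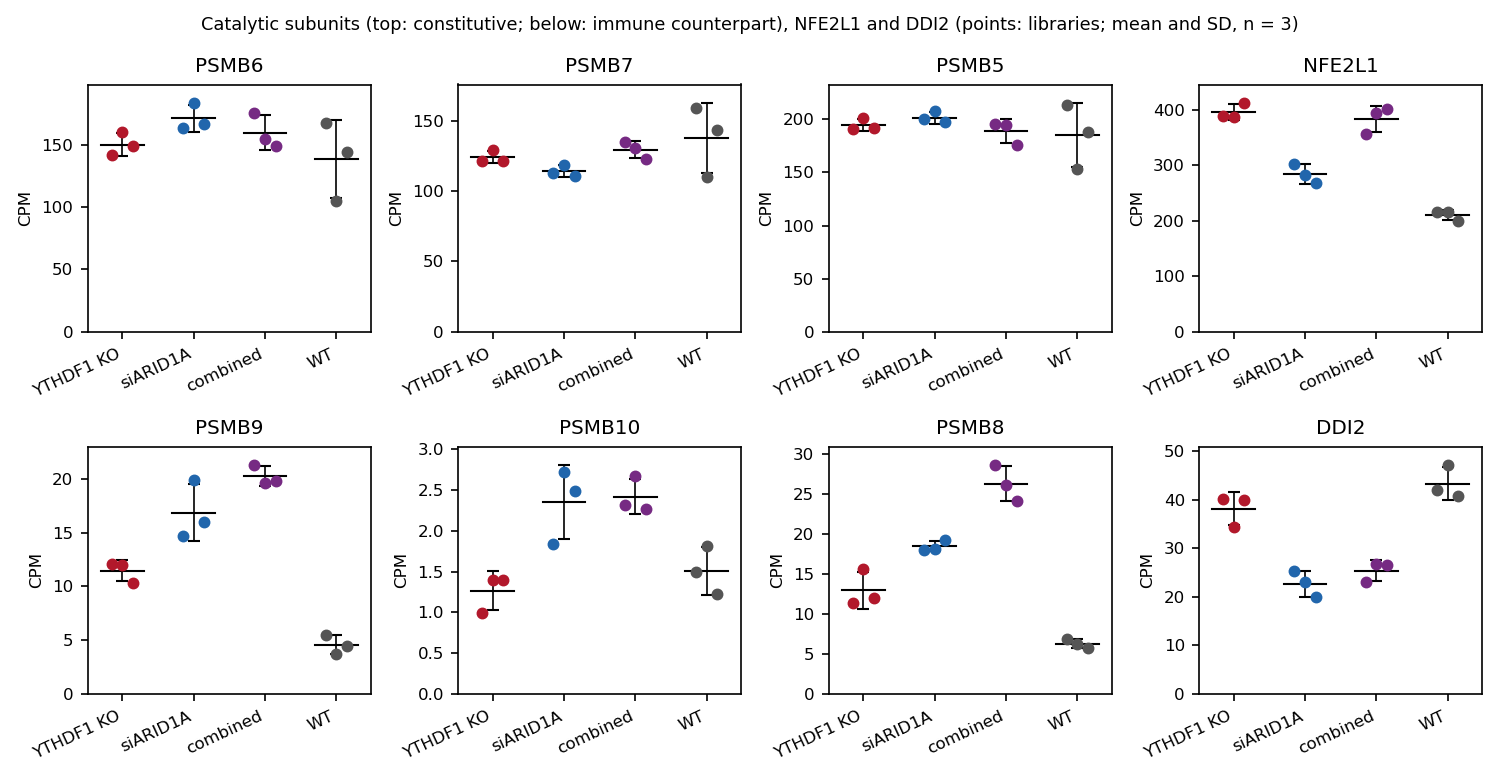
CPM (y axes, from 0, each gene with its own scale) of the constitutive catalytic subunits (top row), their immune counterparts (bottom row), and NFE2L1 and DDI2 (right), by group and library. Points are libraries, and lines and bars the mean and SD (n = 3). PSMB5, PSMB6 and PSMB7 overlap WT in all groups, while PSMB8, PSMB9 and NFE2L1 lie above WT in all 3 other groups.

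NFE2L1, the factor known to drive all subunit genes, rose in every group over WT. NFE2L1 had 389.3, 386.8 and 412.7 CPM in YTHDF1 KO libraries, 303.1, 282.6 and 267.7 CPM in siARID1A libraries, 356.4, 393.6 and 401.2 CPM in combined libraries, and 215.8, 216.2 and 199.2 CPM in WT libraries. The groups with YTHDF1 knocked out were highest, siARID1A lay between, and WT was lowest without overlap. Its log2 fold changes over WT were 0.91 ± 0.049, 0.44 ± 0.065 and 0.87 ± 0.066 in YTHDF1 KO, siARID1A and combined cells (edgeR adjusted p = 1.23e-10, 1.95e-05 and 2.17e-10). The 322 other tested genes within 10 Mb on chromosome 17 had medians of 0.23, 0.21 and 0.25. DDI2, the protease that activates the NFE2L1 protein, fell by 0.93 ± 0.12 in siARID1A and by 0.77 ± 0.095 in combined cells against WT (edgeR adjusted p = 2.92e-08 and 3.06e-07). In the same 3 comparisons with WT, 7, 8 and 9 of the 32 subunit genes rose and 3 fell in each, while 19.6%, 22.1% and 25.6% of all genes were higher. NFE2L1 acts as a cleaved protein, which RNA levels do not show.

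Promoters were searched for TGACNNNGC, the core of the antioxidant response element, on both strands of the 250 bases before the RefSeq start (GRCh38.p14). Windows existed for 27 of the 32 genes, 6 of them with several starts. The motif stood in 7 of the 34 windows of these genes and in 10.9% of all 35116 promoter windows. By gene it stood in 6 of the 27, namely ADRM1, PSMA4, PSMB3, PSMC5, PSMD12 and PSMD3. Of the 6 genes with a window that rose in YTHDF1 KO over WT, 3 held it, against 3 of the other 21. The second 3 included ADRM1, which fell there. Of the first 3, PSMC5 and PSMD12 lie on chromosome 17, from bases 63827152 and 67337916, so their 10 Mb neighbourhoods overlap. Genes within 10 Mb of them had median log2 fold changes of 0.29 and 0.22 in YTHDF1 KO over WT. This split was made for that comparison only, and the part of the motif or of the neighbours in the rises was not tested. CCAAT, the core of the NF-Y box, stood in 16 of the 34 windows and 32% of all windows, and CCGGAAG, an ETS core, in 6 of the 34 windows and 8.52% of all windows. A match describes letters and shows no binding. The windows below are first of PSMD12, the gene with the largest rise, then of PSMB3 and PSMD3, which hold the motif and were not called. The last is of PSMD2, which fell most, and that window holds no match. The PSMD2 window lies inside the gene as placed by GENCODE, which starts at 184298709. It holds no bases before that start, so it cannot show whether the motif is absent there. All windows run 5' to 3' on the gene's strand, with the match in capitals. The match lies 165, 104 and 37 bases before the RefSeq start in the first 3.
PSMD12, chr17:67366578-67366827, minus strand: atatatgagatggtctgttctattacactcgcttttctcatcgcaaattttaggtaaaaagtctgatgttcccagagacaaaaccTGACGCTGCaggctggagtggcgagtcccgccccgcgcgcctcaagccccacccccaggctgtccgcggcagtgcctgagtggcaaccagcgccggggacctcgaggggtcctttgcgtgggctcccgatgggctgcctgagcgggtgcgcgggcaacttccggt
PSMB3, chr17:38752491-38752740, plus strand: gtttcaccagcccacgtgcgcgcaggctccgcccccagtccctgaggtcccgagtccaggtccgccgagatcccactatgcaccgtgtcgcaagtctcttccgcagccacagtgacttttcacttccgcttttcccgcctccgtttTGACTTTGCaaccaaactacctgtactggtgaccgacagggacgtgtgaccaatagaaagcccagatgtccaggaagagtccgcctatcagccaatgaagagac
PSMD3, chr17:39980557-39980806, plus strand: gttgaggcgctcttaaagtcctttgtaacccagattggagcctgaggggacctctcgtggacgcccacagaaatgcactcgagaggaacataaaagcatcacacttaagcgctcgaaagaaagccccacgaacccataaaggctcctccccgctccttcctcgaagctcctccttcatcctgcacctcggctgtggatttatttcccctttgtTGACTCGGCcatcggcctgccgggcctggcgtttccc
PSMD2, chr3:184298991-184299240, plus strand: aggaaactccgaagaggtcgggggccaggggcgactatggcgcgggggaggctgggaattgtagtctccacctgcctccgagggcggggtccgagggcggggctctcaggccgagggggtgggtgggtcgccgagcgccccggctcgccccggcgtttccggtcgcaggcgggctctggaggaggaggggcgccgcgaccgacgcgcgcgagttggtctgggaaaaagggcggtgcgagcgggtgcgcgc

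Comparisons among the altered groups gave few calls. Combined over YTHDF1 KO cells gave 1 rise (ADRM1) and 1 fall (PSMD2) of the 32, while 12.5% of all genes were higher and 10.9% lower. Combined over siARID1A cells gave 2 rises (PSMA1 and PSMD6) and 2 falls (PSMD1 and PSMD14), while 18.2% of all genes were higher and 17.2% lower. The change with siARID1A differed between the YTHDF1 backgrounds, knockout minus WT, in 3 genes. PSMD6 was positive, and PSMC5 and PSMD12 negative, while 8.87% of all genes were positive and 8.22% negative. PSMB7 was also positive without WT replicate 2 (0.44, edgeR adjusted p = 0.00101), and without that library PSMA4 and PSMB7 were also higher in combined than in siARID1A cells (0.16 and 0.17) and ADRM1 lower (-0.23). Median log2 fold changes of the 32 genes were -0.001 in combined over YTHDF1 KO and 0.038 in combined over siARID1A, beside 0.012 and 0.015 for all genes.

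Genes that assemble the proteasome, regulate it or carry substrates to it were read beside the subunits. Of 9 assembly chaperones, 2 rose and 1 fell in YTHDF1 KO, 1 rose and 3 fell in siARID1A, and 3 rose and 2 fell in combined cells over WT. Of all genes tested, 19.6% rose and 20.8% fell in YTHDF1 KO, 22.1% rose and 23% fell in siARID1A, and 25.6% rose and 25.9% fell in combined cells over WT, which is the background for this and the next lists. PSMD5, a chaperone of the base that lies on chromosome 9, fell by 0.51, 0.62 and 0.61 on the log2 scale in those groups. Of 13 ligases, deubiquitinases and shuttles that bind the proteasome, 1 rose and 3 fell in YTHDF1 KO, 1 rose and 8 fell in siARID1A, and 3 rose and 5 fell in combined cells over WT. Without WT replicate 2, 0 chaperones rose and 2 fell in YTHDF1 KO, 1 and 3 in siARID1A, and 2 and 3 in combined cells. For the ligases, deubiquitinases and shuttles the counts were then 1 and 3, 0 and 7, and 1 and 6. In either direction 37.6%, 41.4% and 48.5% of all genes were called in that fit. ECPAS, an adaptor of the proteasome, and the shuttle RAD23B, also on chromosome 9, fell by 0.60 and 0.52 in YTHDF1 KO, by 0.61 and 0.64 in siARID1A, and by 0.63 and 0.64 in combined cells. The other 711 tested genes of chromosome 9 off the subunit list had medians of -0.36, -0.41 and -0.39 in those groups over WT.

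Alternative caps of the 20S core moved separately. PSME3, the nuclear cap PA28 gamma, rose by 0.49 ± 0.054 in YTHDF1 KO over WT (edgeR adjusted p = 4.48e-06). PSME4 (PA200), on chromosome 2, fell by 0.63 ± 0.051 in YTHDF1 KO and by 0.46 ± 0.042 in combined cells against WT. ZFAND5, which stimulates the 26S proteasome, rose by 0.92 ± 0.078 in combined over WT (edgeR adjusted p = 3.11e-10), and by 0.26 ± 0.077 in YTHDF1 KO over WT. Among other multi-subunit complexes, the COP9 signalosome, a relative of the lid, had 1 of 9 genes higher and 2 lower in YTHDF1 KO, 0 and 3 in siARID1A, and 1 and 4 in combined cells over WT. The CCT chaperonin had 0 of 8 higher in all 3 groups and 2, 4 and 4 lower, where 20.8%, 23% and 25.9% of all genes were lower. Without WT replicate 2 the COP9 genes had 1 higher and 2 lower, 1 and 4, and 1 and 6, in the same order of groups. The CCT genes then had 0 higher in all 3 groups and 2, 4 and 6 lower. In either direction 37.6%, 41.4% and 48.5% of all genes were called in that fit. With all libraries, the falls in these complexes included COPS8, COPS7B, CCT7 and CCT4, all on chromosome 2. They also included CCT8 on chromosome 21, which fell by 0.79 ± 0.086 in siARID1A against WT.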

How the data were processed

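Total RNA of 12 A549 libraries was sequenced as stranded libraries, per the labels' protocols. The authors deposited raw counts per Ensembl gene. The submitters' processing notes name Trim Galore 0.6.6, STAR 2.7.0d, featureCounts 2.0.1, edgeR 3.32.1 and GRCh38. Annotation release and strand setting are not given in the sources used here. Symbols matched for 60261 identifiers and GENCODE 29 positions for 58542.

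Counts were fitted in R 4.3.3 with edgeR 4.0.16 (TMM factors 0.912 to 1.055, filterByExpr leaving 18524 genes and dropping 42093, 1 coefficient per group, robust quasi-likelihood F test, two-sided, Benjamini-Hochberg over all genes tested, threshold 0.05). The biological coefficient of variation was 9.44%. DESeq2 1.42.0 was an alternative. Standard errors come from replicate SDs of log2 CPM (prior count 2) in the groups compared. The p-values use the spread that edgeR fits over all groups and moderates across genes, so an SE and its p-value rest on different estimates. Methods were tested on simulated data. The simulation gave every gene the same spread, without a library like WT replicate 2 or a shifted chromosome, so it does not address those. Groups came from the genotype labels, and no library pair agreed within sampling noise. Replicate numbers did not pair libraries. The 32 genes and all lists were chosen with earlier results of these data known. Every subunit was accounted for. Values per library were given for the 5 largest called changes of each comparison, subunits on chromosomes 2 and 9 and the catalytic pairs, and of each other list up to 3 called genes with the smallest p were named, plus NFE2L1. Alternatives changed scaling, filter, tool, samples, block and libraries. No intervals are given for counts of called genes, and their range on leaving out 1 library is given below.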

Additional observations from a re-analysis of the deposited data

Results flagged for a closer look

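The change with siARID1A differed between YTHDF1 KO and WT backgrounds, by a test of the difference itself, in 3 of the 32 genes. These were 9.38% of the 32, beside 17.1% of all genes tested. For PSMD6 the difference was 0.406 on the log2 scale, where the log2 fold change with siARID1A was 0.049 in the knockout and -0.36 in WT cells. For PSMD12 it was -0.446, with -0.13 in the knockout and 0.31 in WT cells. Both were called under all 19 alternatives run. For PSMC5 it was -0.452, with -0.041 in the knockout and 0.41 in WT cells, and this call was lost under 8 of 19 alternatives, all of which left out 1 library, with an adjusted p of up to 0.104. Genes within 10 Mb of PSMD12 and PSMC5 had median differences of -0.23 (228 and 157 genes), and those within 10 Mb of PSMD6 of 0.12 (66 genes). Those of PSMD12 and PSMC5 overlap on chromosome 17, and the part of these neighbourhoods was not tested.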

How the results depend on the processing

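Of 42 calls of subunit genes, 25 held under every alternative run, 17 were lost under some, and 0 changed sign. With library totals in place of TMM, rises over WT numbered 18 in YTHDF1 KO, 15 in siARID1A and 19 in combined cells, and 9 in combined over siARID1A. Over all 18524 genes tested the rises numbered 4765, 4683 and 6074 over WT, and 4328 in combined over siARID1A. With TMM factors from genes off chromosomes 2 and 9, siARID1A gave 5 rises over WT. Fits of the 2 compared groups alone gave 5 rises in siARID1A and 5 in combined cells over WT, and 2 rises and 2 falls in combined over YTHDF1 KO. For these counts the cause was not tested. Leaving out 1 library gave 5 to 14 rises and 2 to 4 falls in YTHDF1 KO, 3 to 13 and 2 to 4 in siARID1A, and 5 to 15 and 3 to 5 in combined cells over WT. It gave 0 to 1 rises and 1 to 1 falls in combined over YTHDF1 KO, 1 to 4 and 2 to 3 in combined over siARID1A, and 1 to 2 positive and 1 to 3 negative differences with siARID1A. The highest counts of rises over WT came without WT replicate 1. Of the fits that left out 1 library, only the one without WT replicate 2 has its counts over all genes given, further above. Rises in siARID1A over WT numbered 3 without siARID1A replicate 2 or WT replicate 2, and 5 without any 1 of the 3 YTHDF1 KO libraries or of combined replicates 2 and 3. Rises in combined cells over WT numbered 5 without combined replicate 1, and falls 5 without WT replicate 2. In combined over YTHDF1 KO, rises numbered 0 without YTHDF1 KO replicate 1 or 2 or combined replicate 1. In combined over siARID1A, rises numbered 4 without WT replicate 2 and 1 without siARID1A replicate 1 or combined replicate 1 or 3. Differences with siARID1A had 2 positive genes without WT replicate 2, and 1 negative gene without any 1 of the YTHDF1 KO libraries, siARID1A replicates 2 and 3, combined replicates 2 and 3, and WT replicate 3. A comparison of the changes has no fit of 2 groups alone. Same-numbered libraries did not vary together (18 correlations, -0.042 to 0.033), and with the replicate number as a block rises were 6, 6 and 7 over WT in YTHDF1 KO, siARID1A and combined cells, with 3 falls in each. DESeq2 gave 8, 10 and 10 rises, with 3 falls in each. Medians over the 32 genes stayed positive over WT in every alternative, at 0.020 to 0.289. Over all comparisons together, 1 of 119 medians moved by more than the SD of library medians of 0.132. That SD exceeds the medians of 0.12 in YTHDF1 KO and 0.084 in siARID1A over WT, so a fall to 0 would not count as moved. Without WT replicate 2 the medians over WT were 0.021, 0.020 and 0.041 in YTHDF1 KO, siARID1A and combined cells. PSMA2 and PSMA6 had the fewest counts of the 32 genes.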

Other observations

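The libraries that define each group's spread were not alike. Within groups, the chi-square of counts per degree of freedom between library pairs was 3.36 to 13.4 in YTHDF1 KO, siARID1A and combined cells, 12.9 between WT replicates 1 and 3, and 54.2 and 51.5 for the pairs that include WT replicate 2. Of the subunit genes, PSMA1, PSMD2 and PSMD3 were the 3 that WT replicate 2 did not hold below both other WT libraries.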
